A study of Mus musculus with 16 samples.

Results

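The 48 genes described here carry out DNA replication and mitosis or drive a cell into them, and they were examined in hearts of mice without MuRF1, MuRF2 or both. They were chosen by gene symbol, older symbols included (Cdc2a for Cdk1, Orc1l for Orc1, 4833427B12Rik for Gins2). No measured value served as a rule, but the choice was made with earlier results of these data known. All 48 had probes on the array, 73 in all among 41174 probes, and 35 of them had enough heart signal to be tested among 12331 genes. MuRF1 (gene Trim63) and MuRF2 (gene Trim55) are muscle ring finger proteins, and the title of the study names gene expression driven by E2F1.

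Each of 16 two-colour arrays compared RNA of 1 heart sample, labelled with Cy5, with 1 common reference labelled with Cy3, made from C57BL/6 pups taken whole on postnatal day 1 and pooled. The mice were 12 weeks old. Both genes were null in the double null group (MuRF1 -/- // MuRF2 -/-). MuRF1 was null and MuRF2 heterozygous in the second group (MuRF1 -/- // MuRF2 +/-), here MuRF1 null MuRF2 het. MuRF1 was heterozygous and MuRF2 null in the third (MuRF1 +/- // MuRF2 -/-), here MuRF1 het MuRF2 null. Wild type hearts carried both alleles of both genes. There were 4 arrays a group, which the labels call biological replicates, and the labels describe the groups as matched for strain. The labels do not say which part of either gene was removed.

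Values are log2 ratios of heart over reference unless another scale is named, so 0 means equal signal and -1 means that the heart gave a log2 unit less than the newborn body. A probe counts as detected in an array where its Cy5 signal was well above background by the scanner software's flag. Differences are from limma over all 16 arrays with standard errors, and rose, fell or called is written only where the p, adjusted by Benjamini and Hochberg over all genes tested, was under 0.05. RNA of a whole heart was measured, so fewer cells of a type and less RNA per cell cannot be told apart.

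A cell that divides first licenses its replication origins by loading the MCM helicase with the help of ORC, Cdc6 and Cdt1. Primase and the replicative polymerases then copy the DNA with a sliding clamp that is loaded by replication factor C, and cyclin-dependent kinases, aurora and polo-like kinases carry the cell through mitosis. E2F factors switch on many genes of the first phase, and many mitotic genes carry a CHR element that the DREAM complex and B-Myb read. Most heart muscle cells of adult mice no longer divide, while a newborn pup is full of dividing cells.

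The letters such factors read were searched in the promoters of the members, because the title of the study names E2F1. RefSeq (GRCm38.p6) gave a window from 250 bases before to 50 after the start for 40 of the 48 members, and the first window listed was used for each gene. The E2F letters TTTCCCGC, TTTGGCGC, TTTCGCGC or TTTGCCGC, on either strand, were found in 12 of 40 windows (30%), against 2.32% of the 27025 genes in the table. They were in 7 of 8 windows of origin licensing and helicase genes and in 0 of 10 windows of mitosis genes. The CHR letters TTTGAA or TTCGAA were in 8 of 10 windows of mitosis genes and in 2 of 8 of origin licensing and helicase genes, against 19.4% of all genes. The letters CCAAT were in 25 of 40 windows (62.5%), against 37.9% of all genes. Of the 5 members that differed from wild type in double null hearts, Prim1, Rfc4, Rfc5, Ung and Cenpa, none had an E2F match in its window, and Rfc4, Rfc5 and Ung had none of the 3 kinds of letters. A match describes the letters and not a bound site. The 250 bases before the start are printed for Prim1 and Cenpa, as members that passed the test and held a match, and for Mcm6 and Cdc20 as examples, picked after the letters were counted, of E2F and CHR letters. Capitals mark the matches on either strand. The Prim1 window is chr10:128014965-128015214 (plus strand) and holds 1 CCAAT at -9. The Cenpa window is chr5:30666636-30666885 (plus strand), with CCAAT on the opposite strand at -109 and -86, and its CHR match lies after the start at 17. The Mcm6 window is chr1:128359706-128359955 (minus strand), with E2F letters at -110 and -106, which overlap on opposite strands, and at -47. The Cdc20 window is chr4:118437344-118437593 (minus strand), with CHR letters at -18 between CCAAT at -53 and at -8.
Prim1: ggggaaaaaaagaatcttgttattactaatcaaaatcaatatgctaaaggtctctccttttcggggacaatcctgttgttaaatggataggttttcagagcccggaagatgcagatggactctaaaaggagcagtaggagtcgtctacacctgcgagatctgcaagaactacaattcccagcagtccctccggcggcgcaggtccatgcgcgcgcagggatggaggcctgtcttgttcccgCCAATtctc
Cenpa: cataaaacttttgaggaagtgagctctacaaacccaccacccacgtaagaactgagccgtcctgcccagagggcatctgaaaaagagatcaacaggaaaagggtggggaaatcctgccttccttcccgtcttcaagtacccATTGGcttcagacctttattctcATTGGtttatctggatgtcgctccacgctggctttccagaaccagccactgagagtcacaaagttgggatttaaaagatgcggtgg
Mcm6: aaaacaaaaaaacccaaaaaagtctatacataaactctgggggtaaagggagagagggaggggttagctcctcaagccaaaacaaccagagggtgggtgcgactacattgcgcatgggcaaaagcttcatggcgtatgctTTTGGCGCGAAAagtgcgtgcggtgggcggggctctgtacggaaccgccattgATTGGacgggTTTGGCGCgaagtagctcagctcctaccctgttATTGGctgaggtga
Cdc20: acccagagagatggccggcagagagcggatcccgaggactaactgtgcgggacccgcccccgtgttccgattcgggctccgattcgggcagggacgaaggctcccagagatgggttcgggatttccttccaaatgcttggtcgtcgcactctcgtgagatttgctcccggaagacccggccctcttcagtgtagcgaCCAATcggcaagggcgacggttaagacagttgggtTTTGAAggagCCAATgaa

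Against the newborn reference the members were low in hearts of every genotype. Of the 35 tested members, 31 in double null hearts, 31 with MuRF1 null and MuRF2 het, 31 in MuRF1 het MuRF2 null and 32 in wild type hearts averaged below 0. Their median ratio was -0.62 in double null hearts, -0.65 with MuRF1 null and MuRF2 het, -0.98 in MuRF1 het MuRF2 null and -0.97 in wild type hearts, while the median of all genes tested lay between 0.03 and 0.06. The lowest member was the proliferation marker Mki67, at -2.41 ± 0.70 in double null and -2.93 ± 0.16 in wild type hearts (SD, n = 4 each). Ung, the glycosylase that removes uracil from DNA, stood highest in wild type hearts, at 0.38 ± 0.30 in double null and 1.13 ± 0.28 in wild type hearts (SD, n = 4 each).

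The heart signal of many members was close to the background. Of the 48 members, 8 were detected on all 16 arrays (Mcm3, Mcm4, Mcm6, Pcna, Rfc4, Ung, Birc5 and Cdc20) and 8 on none (Orc1, Cdc6, Brca1, Chek1, Ccne2, Bub1, Aurkb and Top2a). Another 5 (Pola2, Rfc3, Rrm2, Mybl2 and Ccnb1) were detected on 1 to 3 arrays and not tested either. The Cy3 signal of the reference was well above background on all 16 arrays for 46 of the 48 members. Gins2, a subunit of the GINS complex of the helicase, was kept for the test through MuRF1 het MuRF2 null hearts alone, where it was detected on 4 of 4 arrays. Ccna2, the cyclin of S phase, was detected on 0 double null, 0 MuRF1 null MuRF2 het, 4 MuRF1 het MuRF2 null and 3 wild type arrays.

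**Figure D1:**
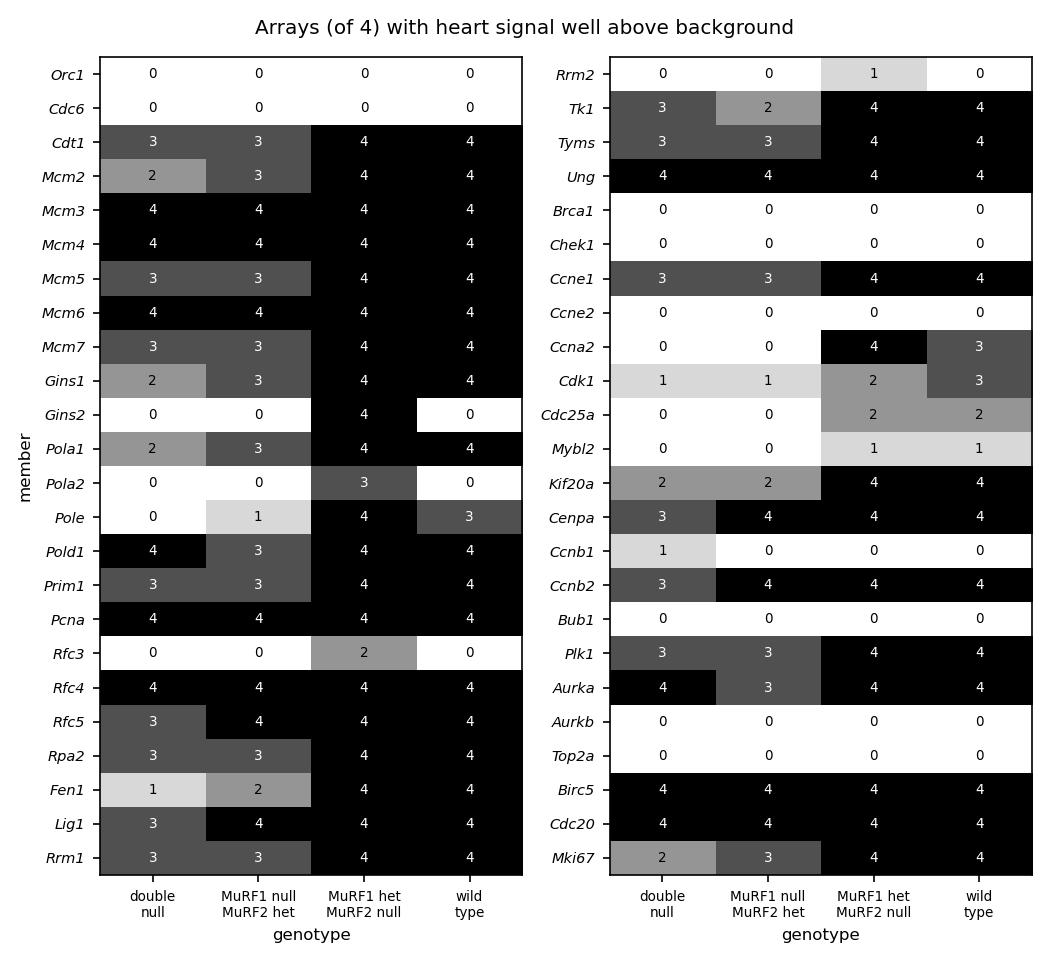
Number of arrays, of 4 in each genotype (columns), on which the heart (Cy5) signal of each of the 48 members (rows) was well above background, with darker cells for more arrays. Rows of 0 mark members such as Orc1, Bub1 and Top2a that no heart array detected, and 25 members were detected on fewer double null than wild type arrays.

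Detection also differed between arrays. Members detected numbered 28, 10, 30 and 27 of 48 on the double null arrays, 12, 32, 27 and 30 on the MuRF1 null MuRF2 het arrays, 34, 38, 38 and 33 on the MuRF1 het MuRF2 null arrays and 32, 33, 35 and 32 on the wild type arrays. Double null 2 and MuRF1 null MuRF2 het 1 stood apart. They had 6028 and 6397 probes of the whole array above background, against 11493 to 17383 on the other arrays. The median ratio of the tested members was -0.68, -0.19, -0.96 and -0.79 on the double null arrays, -0.34, -0.96, -0.60 and -0.83 on the MuRF1 null MuRF2 het arrays, -1.14, -0.96, -0.98 and -1.08 on the MuRF1 het MuRF2 null arrays and -0.79, -1.02, -1.13 and -1.01 on the wild type arrays. The 2 dimmest arrays thus had the members closest to the reference.

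**Figure D2:**
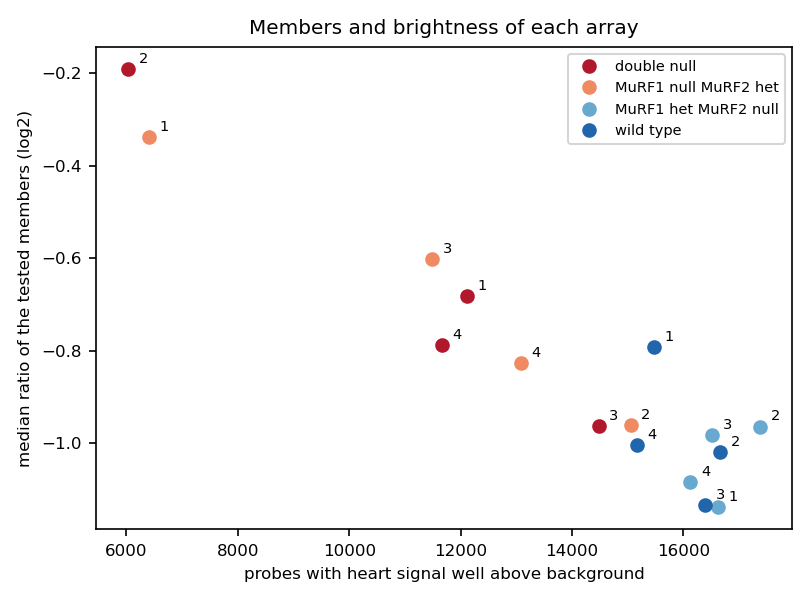
Median log2 ratio of the 35 tested members on each array (vertical) against the number of probes with heart signal well above background on that array (horizontal), with colours for genotypes and numbers for replicates. Double null 2 (6028 probes) is highest at -0.19, followed by MuRF1 null MuRF2 het 1 (6397 probes) at -0.34, and the wild type arrays lie between -1.13 and -0.79.

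The headers of the files put 2 double null and 2 wild type arrays on slide 1 and as many on slide 3. The MuRF1 null MuRF2 het arrays were all on slide 2, and the MuRF1 het MuRF2 null arrays all on slide 4, which was read with another software version. For these 2 genotypes the slide and the genotype cannot be told apart. Trim63 averaged -0.72 in double null hearts, -0.64 with MuRF1 null and MuRF2 het, 1.94 in MuRF1 het MuRF2 null and 2.64 in wild type hearts, in the order of the labelled MuRF1 alleles. Trim55 averaged -1.35 in double null and -1.73 in wild type hearts and gave no check of the MuRF2 labels. The heart myosin Myh6 was at 2.45 in double null and 3.97 in wild type hearts.

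Double null hearts were first set against wild type hearts, which asks what loss of all MuRF1 and MuRF2 changes. Of the 35 tested members, 4 rose (Prim1, Rfc4, Rfc5 and Cenpa) and Ung fell, so that 5 (14.3%) were called, while 22.2% of all 12331 genes were called in that comparison, 10.2% higher and 12% lower. The members were thus not called more often than genes at large. The difference was above 0 for 31 of the 35 members with a median of 0.31, against a median of 0.01 and 51.3% above 0 over all genes. The sign of these differences was not the same with every normalization in place of loess. With each array centred on its median instead, 0 of 35 differences were above 0, where 5.27% of all genes were. The members' median was then -0.35 and that of all genes -0.49. This all-gene median stands beside every median-centred value of this comparison given below. With the Feature Extraction log ratio 22 of 35 members were above 0 (38.1% of all genes). The members' median was 0.15 there, and that of all genes -0.18. Without a filter on dim probes all 48 members had a value, of which 44 were above 0 (55.7% of all genes). Their median was 0.28 and 3 were called (9.06% of all genes were). The 4 double null arrays lay wholly above or below the 4 wild type arrays for 9 members (25.7%), against 25.5% of all genes.

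The members that rose belong to the replication fork and the centromere. Prim1, the catalytic subunit of the primase that starts each new DNA strand, was at -0.87, -0.31, -1.12 and -0.81 on the double null arrays, at -0.38, -1.42, -0.90 and -1.10 with MuRF1 null and MuRF2 het, at -1.34, -1.13, -1.33 and -1.22 with MuRF1 het and MuRF2 null, and at -1.31, -1.33, -1.39 and -1.38 on the wild type arrays. Every double null array was above every wild type array, and the highest was the dim array double null 2, where Prim1 was not detected. Its mean was -0.78 ± 0.34 in double null and -1.35 ± 0.04 in wild type hearts (SD, n = 4 each), a difference of 0.57 ± 0.18 (SE, 1.49-fold, adjusted p = 0.0347 by limma). In the Cy5 channel alone Prim1 rose by 0.25 ± 0.07 (adjusted p = 0.0146 by limma).

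Replication factor C opens the Pcna ring and loads it onto DNA. Its subunit Rfc4 was at 0.48, 0.25, 0.16 and 0.19 on the double null arrays, at 0.21, -0.02, -0.07 and 0.11 with MuRF1 null and MuRF2 het, at -0.07, -0.21, 0.04 and -0.15 with MuRF1 het and MuRF2 null, and at 0.06, -0.17, -0.15 and -0.12 on the wild type arrays. It was detected on all 16 arrays, and no double null value reached down to a wild type value. The difference was 0.36 ± 0.09 (SE, 1.29-fold, adjusted p = 0.0132 by limma), and Cy5 alone gave 0.33 ± 0.10 (adjusted p = 0.0222 by limma).

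The subunit Rfc5 was at -0.07, 0.11, -0.34 and -0.14 on the double null arrays, at 0.18, -0.65, -0.06 and -0.59 with MuRF1 null and MuRF2 het, at -0.67, -0.62, -0.52 and -0.74 with MuRF1 het and MuRF2 null, and at -0.49, -0.72, -0.59 and -0.58 on the wild type arrays. The double null and wild type arrays did not overlap, Rfc5 was not detected on double null 2, and the MuRF1 null MuRF2 het arrays spanned both. The difference was 0.48 ± 0.15 (SE, 1.40-fold, adjusted p = 0.0353 by limma), and in Cy5 alone it was 0.39 ± 0.15 (adjusted p = 0.0728 by limma).

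Cenpa, the histone H3 variant of centromeres, was at 0.94, 0.10, 0.58 and 0.48 on the double null arrays, at 0.40, 0.06, 0.21 and 0.63 with MuRF1 null and MuRF2 het, at 0.18, 0.10, 0.21 and 0.13 with MuRF1 het and MuRF2 null, and at 0.18, 0.13, 0.06 and -0.04 on the wild type arrays. Double null 2, where Cenpa was not detected, fell among the wild type values, and the other 3 double null arrays were above them. The difference was 0.44 ± 0.14 (SE, 1.36-fold, adjusted p = 0.0389 by limma), and in Cy5 alone 0.40 ± 0.14 (adjusted p = 0.0525 by limma).

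Ung was the member that fell. It was at 0.82, 0.30, 0.14 and 0.24 on the double null arrays, at 0.32, 1.01, 0.94 and 0.55 with MuRF1 null and MuRF2 het, at 1.27, 1.19, 1.16 and 1.22 with MuRF1 het and MuRF2 null, and at 0.85, 0.94, 1.45 and 1.27 on the wild type arrays. All double null arrays were below all wild type arrays, and double null 1 was close to the lowest wild type array. The difference was -0.75 ± 0.17 (SE, 1.68-fold lower, adjusted p = 0.00759 by limma), and -0.50 ± 0.14 in Cy5 alone (adjusted p = 0.0177 by limma).

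**Figure D3:**
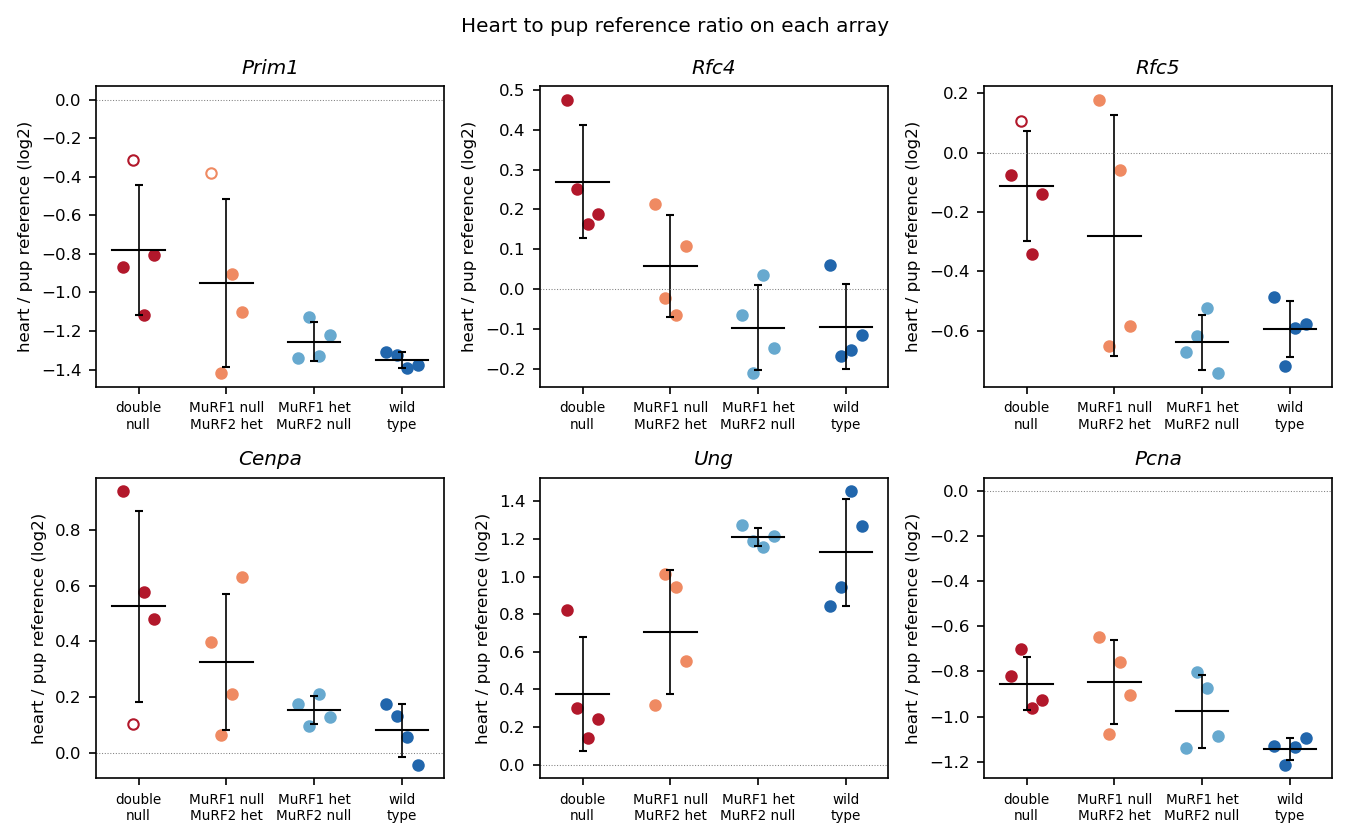
Log2 ratio of heart over pup reference on each array for the 5 members that passed and for Pcna, by genotype from double null at the left to wild type at the right, with bars for the mean and SD of 4 arrays and open circles where the heart signal was not well above background. For Prim1, Rfc4 and Rfc5 the double null points lie above all wild type points in these loess-normalized ratios, and for Ung below them. With median centring the mean differences of Prim1, Rfc4 and Rfc5 were -0.18, -0.35 and -0.11, and the median of all genes was -0.49.

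The clamp and the polymerases did not pass. Pcna, the sliding clamp, was at -0.82, -0.70, -0.96 and -0.93 on the double null arrays, at -0.65, -1.08, -0.76 and -0.91 with MuRF1 null and MuRF2 het, at -1.14, -0.80, -0.87 and -1.09 with MuRF1 het and MuRF2 null, and at -1.13, -1.21, -1.13 and -1.09 on the wild type arrays. Every double null array was above every wild type array, with a difference of 0.29 ± 0.10 (SE) and an adjusted p of 0.0509 by limma, just over the threshold, and -0.76 with median centring. Pold1, the catalytic subunit of polymerase delta, was at 0.07, 0.08, -0.31 and -0.04 on the double null arrays, at -0.07, -0.01, -0.02 and -0.11 with MuRF1 null and MuRF2 het, at 0.09, 0.24, 0.21 and 0.23 with MuRF1 het and MuRF2 null, and at -0.10, 0.04, 0.02 and -0.12 on the wild type arrays. The double null and wild type arrays overlapped, with a difference of -0.01 ± 0.09 (SE) and a 95% interval of -0.20 to 0.17. Pola1, the catalytic subunit of polymerase alpha, differed by -0.03 ± 0.09 in the ratio and fell by 0.31 in Cy5 alone (SE 0.09, adjusted p = 0.0265 by limma). Pola1 was detected on 2 of 4 double null and 4 of 4 wild type arrays. Over the 10 tested genes of fork polymerases, clamp and ligase, 3 rose and none fell. Their median difference was 0.26, or -0.42 with median centring.

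None of the 9 tested origin licensing and helicase genes passed, and all 9 differences were above 0, with a median of 0.27, or -0.46 with median centring. The helicase subunit Mcm6 was at -1.99, -0.62, -2.13 and -2.00 on the double null arrays, at -1.08, -2.40, -1.73 and -2.17 with MuRF1 null and MuRF2 het, at -2.15, -2.13, -2.09 and -1.73 with MuRF1 het and MuRF2 null, and at -2.39, -2.31, -2.04 and -2.25 on the wild type arrays. Double null 2 stood far above the other double null arrays, which lay among or just above the wild type values. The difference was 0.56 ± 0.30 (SE, adjusted p = 0.174 by limma), and 0.21 without double null 2.

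The subunit Mcm3 was at -1.42, -0.49, -1.45 and -1.43 on the double null arrays, at -0.73, -1.61, -1.34 and -1.52 with MuRF1 null and MuRF2 het, at -1.29, -1.51, -1.23 and -1.51 with MuRF1 het and MuRF2 null, and at -1.60, -1.39, -1.48 and -1.50 on the wild type arrays. The dimmest array of each MuRF1 null group was again the highest. The difference was 0.30 ± 0.20 (SE, adjusted p = 0.299 by limma), and 0.06 without double null 2. Cdt1, which brings the helicase to the origins, differed by 0.55 ± 0.23 (SE, adjusted p = 0.0987 by limma) in the ratio and by 0.06 ± 0.07 in Cy5 alone.

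The genes of nucleotide supply did not pass either. Rrm1, the large subunit of ribonucleotide reductase, was at -0.96, -0.60, -1.06 and -1.06 on the double null arrays, at -0.64, -1.21, -0.92 and -1.08 with MuRF1 null and MuRF2 het, at -1.21, -1.13, -1.08 and -1.28 with MuRF1 het and MuRF2 null, and at -1.09, -1.19, -1.21 and -1.19 on the wild type arrays. The groups did not overlap in the ratio (0.25 ± 0.12, SE, adjusted p = 0.142 by limma), while Cy5 alone differed by -0.02 ± 0.09. Tyms, the thymidylate synthase, was at -1.10, -0.34, -1.52 and -1.09 on the double null arrays, at -0.48, -1.45, -1.17 and -1.15 with MuRF1 null and MuRF2 het, at -1.55, -1.56, -1.66 and -1.30 with MuRF1 het and MuRF2 null, and at -1.36, -1.48, -1.57 and -1.42 on the wild type arrays. Double null 3 lay among the wild type values and the difference was 0.45 ± 0.21 (SE, adjusted p = 0.132 by limma).

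Among the cyclins and their regulators 4 were tested and none passed. Ccne1, the cyclin E of the entry into S phase, was at -0.68, -0.15, -0.85 and -0.62 on the double null arrays, at -0.31, -0.86, -0.57 and -0.83 with MuRF1 null and MuRF2 het, at -1.03, -0.89, -0.83 and -0.90 with MuRF1 het and MuRF2 null, and at -0.79, -1.17, -0.80 and -0.93 on the wild type arrays. The difference was 0.35 ± 0.15 (SE, adjusted p = 0.0944 by limma), with overlapping groups. Ccna2 was at -1.17, -0.41, -1.60 and -1.19 on the double null arrays, at -0.34, -1.65, -1.24 and -1.36 with MuRF1 null and MuRF2 het, at -1.98, -2.06, -2.02 and -1.86 with MuRF1 het and MuRF2 null, and at -1.59, -1.73, -1.66 and -1.67 on the wild type arrays. These ratios rest on heart signals that no double null array detected, and no fold is given.

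Of the 8 tested mitosis genes Cenpa rose, and all 8 differences were above 0, with a median of 0.46, or -0.38 with median centring. Cdc20, which activates the anaphase-promoting complex, was at -1.34, -0.71, -1.83 and -1.42 on the double null arrays, at -0.82, -1.88, -1.64 and -1.71 with MuRF1 null and MuRF2 het, at -1.87, -1.93, -1.89 and -1.85 with MuRF1 het and MuRF2 null, and at -1.56, -1.79, -2.07 and -1.66 on the wild type arrays. Double null 3 lay among the wild type values, and the difference was 0.44 ± 0.22 (SE, adjusted p = 0.15 by limma). Birc5 (survivin, of the chromosomal passenger complex) was at -2.29, -1.09, -2.61 and -2.49 on the double null arrays, at -1.35, -2.99, -2.36 and -2.49 with MuRF1 null and MuRF2 het, at -2.84, -2.86, -2.96 and -2.89 with MuRF1 het and MuRF2 null, and at -2.58, -2.98, -2.89 and -2.67 on the wild type arrays. It had the largest positive ratio difference of the tested members and one of the largest errors, 0.65 ± 0.31 (SE, adjusted p = 0.133 by limma).

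Mki67 gave different answers on the 2 scales. It was detected on 2 of 4 double null and 4 of 4 wild type arrays, so its double null values rest partly on undetected heart signals. Its ratio was at -2.72, -1.42, -3.02 and -2.48 on the double null arrays, at -1.36, -2.87, -2.23 and -2.79 with MuRF1 null and MuRF2 het, at -2.96, -3.03, -3.20 and -2.90 with MuRF1 het and MuRF2 null, and at -2.81, -3.18, -2.88 and -2.87 on the wild type arrays. The double null ratios overlapped the wild type ones and averaged 0.53 ± 0.31 higher (SE, adjusted p = 0.229 by limma). Its log2 Cy5 signal alone was 5.97, 5.91, 6.02 and 6.08 on the double null arrays and 6.27, 6.17, 6.38 and 6.21 on the wild type arrays, so that all double null arrays were lower, by 0.26 ± 0.09 (SE, adjusted p = 0.0593 by limma). Top2a, the topoisomerase of dividing cells, was detected on no array, with a median Cy5 signal over background of 3.38 units in double null and 5.53 units in wild type hearts, against 96.8 and 87.2 units in the Cy3 reference of the same arrays. Its ratio, which thus rests on undetected heart signals, was at -0.50, -0.13, -0.74 and -0.49 on the double null arrays, at 0.04, -0.87, -0.52 and -0.68 with MuRF1 null and MuRF2 het, at -0.77, -0.53, -0.64 and -0.77 with MuRF1 het and MuRF2 null, and at -0.73, -1.05, -0.95 and -0.74 on the wild type arrays, and it was not tested.

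The heart channel was therefore set beside the ratio for every member, as background-corrected log2 Cy5 signals brought to the same distribution on all arrays. In Cy5 alone, Prim1 and Rfc4 rose and Ung and Pola1 fell, 4 of 35 members, where 19.9% of all genes were called. The median difference of the members in Cy5 alone was 0.06, against -0.03 over all genes, and 23 of 35 were above 0 (43.6% of all genes). For 10 members the ratio and Cy5 alone had opposite signs. The reference channel alone differed between the double null and wild type arrays by -0.10 to 0.11 for these members, and none was called in it by limma (1.44% of all genes were, and 6 members had an unadjusted p under 0.05).

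**Figure D4:**
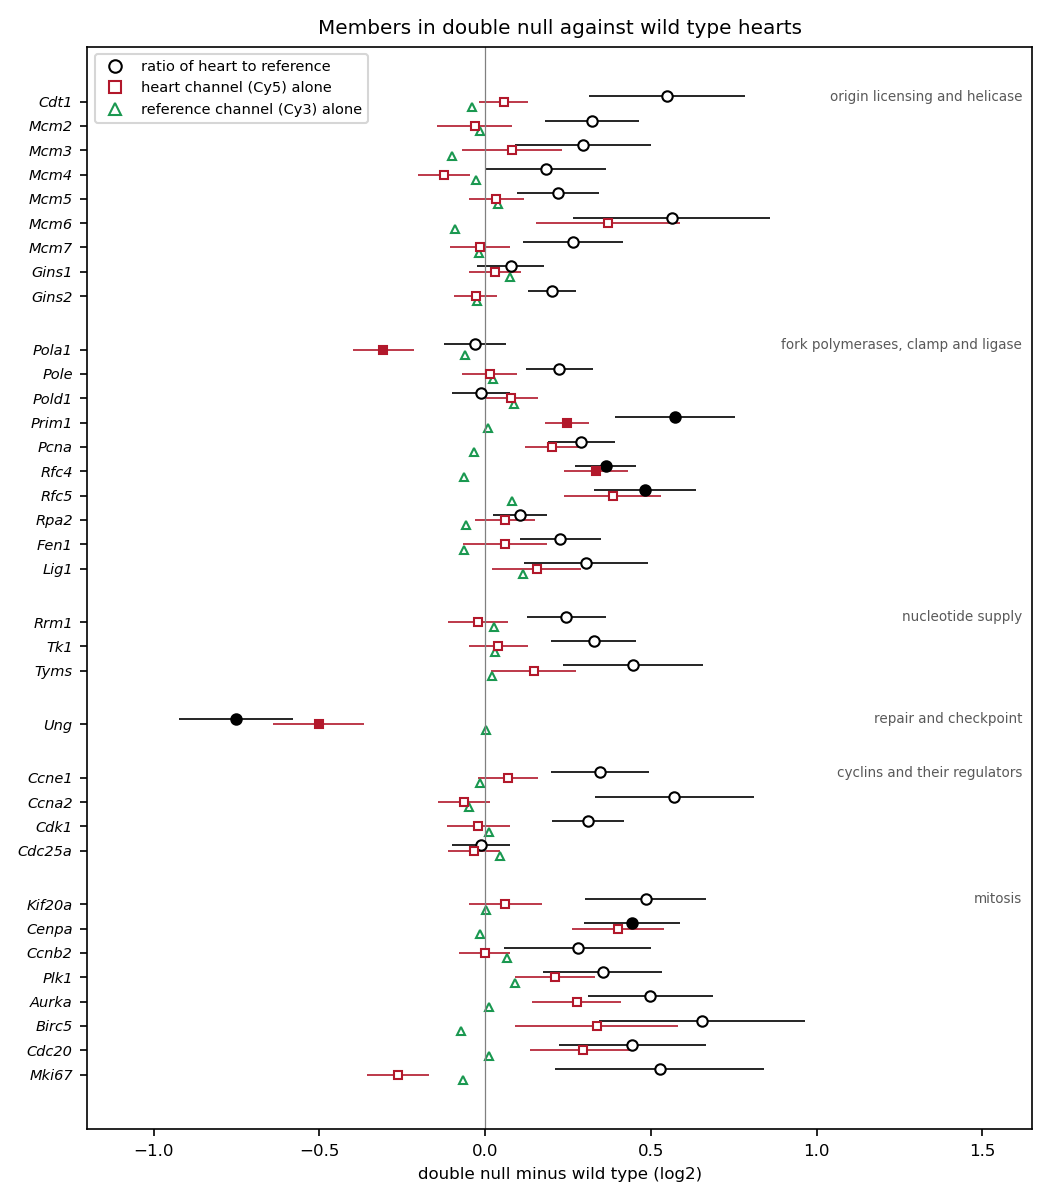
Difference of double null minus wild type hearts (log2, horizontal) for the 35 tested members by role, in the ratio (circles, with SE), in the heart channel alone (squares, with SE) and in the reference channel alone (triangles), filled where the adjusted p was under 0.05. Circles, after loess, lie mostly right of 0 with a median of 0.31 (-0.35 with median centring, where all genes had -0.49). Squares have a median of 0.06, and all triangles lie between -0.10 and 0.11.

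The brightness of the arrays moved with this result. With the median log2 Cy5 intensity of each array as a covariate, 0 of 35 members were called by limma (8.81% of all genes were). There 7 members had an unadjusted p under 0.05, 7 were above 0 (46.3% of all genes) and the median difference was -0.13. That intensity was 5.95 to 6.71 on the double null arrays and 6.82 to 7.1 on the wild type arrays. As these do not overlap, brightness and genotype cannot be told apart in this comparison. With both dimmest arrays left out, 7 were called (29.3% of all genes) and the median was 0.20. Median centring in place of loess gave 21 lower and 0 higher members where 55.8% of all genes were called, and the members' median lay 0.14 above that of all genes. Weighting the arrays by their quality gave 19 higher and 2 lower members, with 49.9% of all genes called. On slide 1 alone 0 of 35 members and 0 of all genes were called by limma (15 members had an unadjusted p under 0.05), and the member median was 0.45. On slide 3 alone 3 were called (19.3% of all genes) and the median was 0.14. When single arrays were left out, 2 to 14 members were called. There were 14 without double null 3 (29.3% of all genes) and 13 without MuRF1 null MuRF2 het 1 (29.9%), 3 without double null 1 (18.1%) or 2 (18.7%), and 2 without double null 4 (15.7%) or without wild type 2 (13.6%), 3 (12.6%) or 4 (14.6%). Rfc4 and Ung passed whichever of the 8 arrays was left out, with adjusted p up to 0.0421 and 0.03 (limma), while Prim1, Rfc5 and Cenpa reached up to 0.0942, 0.0932 and 0.107.

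Markers of other cell types also moved. Of 8 endothelial markers, 7 fell with a median difference of -0.67, and their summed log2 Cy5 signal was 10.2 to 10.4 in double null and 11.0 to 11.1 in wild type hearts. The endothelial median was -1.35 with median centring and -0.41 with brightness as a covariate. The median of all genes was -0.49 and -0.02 in these settings. Of 7 fibroblast markers 2 rose (Lum and Postn), with a median of 0.74 that was -0.57 with median centring and -0.08 with brightness as a covariate. Of 4 smooth muscle markers 2 rose (Cnn1 and Tagln), and their median of 0.48 likewise was -0.60 and -0.02. Among 6 tested macrophage and leukocyte markers 1 rose (Ptprc), detected on 1 of 4 double null and 4 of 4 wild type arrays. Of 5 skeletal muscle markers Myh4 and Ckm fell and Myh1 rose, and their summed log2 Cy5 signal was 11.8 to 12.2 in double null and 13.1 to 13.5 in wild type hearts. Of 8 cardiomyocyte markers Nppa rose by 2.90, and Myh6 and Ryr2 fell. Ryr2 was detected on 1 of 4 double null and 4 of 4 wild type arrays, with a mean log2 Cy5 of 6.225 and 6.198. The 8 markers had a summed log2 Cy5 signal of 16.3 to 16.9 in double null and 16.4 to 16.6 in wild type hearts. The part of these cell types in the members' values was not tested.

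Other genes of the same processes were counted from lists that held none of the members apart from Ccne1 and Ccne2. Of 37 further licensing and replication genes 25 were tested, and 5 rose and none fell, where 10.2% of all genes rose and 12% fell. Pole3 and Pole4, the small histone-fold subunits of polymerase epsilon, rose by 0.59 ± 0.11 (adjusted p = 0.00175) and 0.54 ± 0.11 (adjusted p = 0.00403), both by limma with SE, and both also rose in Cy5 alone. Chaf1a, the large subunit of the histone chaperone CAF-1, and Orc4, an origin recognition subunit, rose by 0.29 and 0.43. Chaf1a was detected on 2 of 4 double null and 4 of 4 wild type arrays. Of 47 further mitosis genes 25 were tested, and 5 rose and none fell, among them Tubb5 (0.66 ± 0.13, SE, adjusted p = 0.00313 by limma), Smc2 of condensin (0.54), the CDK-binding Cks1b (0.76) and the microtubule destabiliser Stmn1 (0.61). The same shares of all genes, 10.2% and 12%, stand beside this count. Smc2 was detected on 1 of 4 double null and 1 of 4 wild type arrays. Its ratio thus rests mostly on undetected heart signals, with a mean log2 Cy5 of 6.06 and 5.97. The median difference was 0.16 for the first list and 0.43 for the second. In Cy5 alone these medians were 0.00 and 0.13 (all genes -0.03), and with brightness as a covariate 0.01 and -0.13 (all genes -0.02). With median centring they were -0.36 and -0.37 (all genes -0.49). In Cy5 alone 4 rose and none fell in the first list, and 3 rose and 1 fell in the second. Of all genes 8.56% rose and 11.3% fell in Cy5 alone. With median centring Pole3, Pole4, Chaf1a, Orc4, Tubb5, Cks1b and Stmn1 were below 0 instead, and Smc2 was at 0.14. Of 16 G1 cyclins, kinases and inhibitors 12 were tested and none passed.

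MuRF1 null MuRF2 het hearts were then set against wild type hearts. No member was called in the ratio (7 had an unadjusted p under 0.05) or in Cy5 alone (2 had), where 1.03% and 0.47% of all genes were called by limma. The ratio difference was above 0 for 32 of 35 members (50.6% of all genes), with a median of 0.24. In Cy5 alone it was above 0 for 19 of 35 (43.5% of all genes), with a median of 0.01. With median centring 0 of 35 were above 0 (3.52% of all genes), and the median was -0.42 (all genes -0.51). There 25 were called lower where 59.8% of all genes were called. With brightness as a covariate 7 of 35 were above 0 (47.1% of all genes) and the median was -0.14. Pcna had the smallest p, with every array above every wild type array and a difference of 0.30 ± 0.10 (SE, adjusted p = 0.128 by limma), and it was the 1 member of 35 whose groups did not overlap, against 12.7% of all genes. Ung differed by -0.42 ± 0.17 (SE, adjusted p = 0.169 by limma) and Prim1 by 0.40 ± 0.18 (adjusted p = 0.202 by limma). Array weights gave 5 calls, with 17.2% of all genes called. Without MuRF1 null MuRF2 het 2, 2 members were called, and 12.1% of all genes.

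In MuRF1 het MuRF2 null hearts against wild type hearts no member was called in the ratio (5 had an unadjusted p under 0.05) or in Cy5 alone (4 had), where 1.95% and 4.99% of all genes were called by limma. The members' median difference was 0.00 in the ratio and -0.02 in Cy5 alone, and 17 of 35 ratio differences were above 0. With median centring 1 of 35 was above 0 (6.2% of all genes), and the median was -0.36 (all genes -0.34). There 15 were called lower where 20.7% of all genes were called. Without double null 2, an array of neither group that enters through the shared spread, 1 member was called lower, with 3.38% of all genes called. The arrays of the groups did not overlap for 6 members (17.1%), against 20.7% of all genes. The Cy3 reference, which is the same RNA on every array, was itself different on slide 4. In Cy3 alone 13 of 35 members and 54.9% of all genes differed between these arrays and the wild type arrays, by -0.53 to 0.51 for the members. Kif20a, a kinesin of cytokinesis, had the smallest p in the ratio, at -0.52 ± 0.18 (SE, adjusted p = 0.153 by limma), with a Cy3 difference of 0.37 and a Cy5 difference of -0.12. Mcm7 differed by -0.36 in the ratio, by 0.51 in Cy3 and by 0.14 in Cy5.

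Double null and MuRF1 null MuRF2 het hearts, which differ by 1 MuRF2 allele, were not told apart in the members. None was called in the ratio (1 had an unadjusted p under 0.05) or in Cy5 alone (6 had), where 0.349% and 2.55% of all genes were called by limma, and the median difference was 0.05, with 24 of 35 above 0. That median turned on single arrays, since it was -0.10 without double null 2 (10 of 35 above 0) and -0.03 without MuRF1 null MuRF2 het 2 (11 of 35), but 0.22 without MuRF1 null MuRF2 het 1 (30 of 35) and 0.14 without double null 3 (31 of 35). The arrays of the groups overlapped for every tested member, while 2.84% of all genes did not overlap. The largest differences were Ung, at -0.33 with a 95% interval of -0.69 to 0.04, and Aurka, the aurora A kinase, at 0.22 with an interval of -0.19 to 0.62. The Ung interval does not reach its difference of -0.75 against wild type. That difference has an error of its own and uses the same double null arrays, and the 2 differences were not tested against each other. Intervals that include 0, as 34 of the 35 do, leave room for smaller changes.

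Double null hearts differed from MuRF1 het MuRF2 null hearts in 11 members, 9 higher (Mcm7, Rfc4, Rfc5, Tk1, Ccna2, Cdk1, Kif20a, Plk1 and Aurka) and 2 lower (Ung and Pold1), 31.4% where 26.3% of all genes were called, 13.6% higher and 12.7% lower. The groups did not overlap for 13 members (37.1%), against 28.8% of all genes. The double null arrays are those of the comparison with wild type. Kif20a was at -0.90, -0.27, -1.23 and -1.15 on the double null arrays and at -1.90, -1.96, -1.87 and -1.86 with MuRF1 het and MuRF2 null, a ratio difference of 1.01 ± 0.18 (SE, 2.01-fold, adjusted p = 0.00148 by limma). The groups did not overlap. Kif20a was detected on 2 of 4 double null and 4 of 4 MuRF1 het MuRF2 null arrays, so the fold rests partly on undetected heart signals. In Cy5 alone the difference was 0.18 (adjusted p = 0.225) and in Cy3 alone -0.36 (adjusted p = 6.6e-08), both by limma. Cdk1 was detected on 1 of 4 double null and 2 of 4 MuRF1 het MuRF2 null arrays. Mcm7 rose by 0.62 ± 0.15 in the ratio (SE, adjusted p = 0.00771 by limma), with differences of -0.16 in Cy5 and -0.53 in Cy3. Ccna2 was detected on 0 of 4 double null arrays and on 4 of 4 of the MuRF1 het MuRF2 null arrays, so no fold is given, and in Cy5 alone it differed by -0.05 (adjusted p = 0.677 by limma).

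In Cy3 alone 16 of 35 members and 57% of all genes differed between these arrays, and 5 of the 11 members called in the ratio were among them. In Cy5 alone 10 members were called (29.7% of all genes), and of the 11 called in the ratio Rfc4, Aurka and Ung passed there in the same direction. Rfc4 rose by 0.37 ± 0.09 (SE, adjusted p = 0.00992 by limma) in the ratio and by 0.30 in Cy5 alone, and Ung fell by 0.83 (SE 0.17, adjusted p = 0.00325 by limma) in the ratio. Ung was also lower by 0.38 in Cy5 alone (adjusted p = 0.0475 by limma). When single arrays of either group were left out, 7 to 15 members were called, with 15 without double null 3 (30.8% of all genes) and 7 without MuRF1 het MuRF2 null 4 (19.4%).

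MuRF1 null MuRF2 het hearts differed from MuRF1 het MuRF2 null hearts in 3 members, Kif20a, Mcm7 and Ccna2, all higher (8.6%, with 8.54% of all genes called and 4.56% higher). The groups did not overlap for 10 members (28.6%), against 20% of all genes. In Cy5 alone 3 other members were called, Cenpa higher and Mcm4 and Pold1 lower, where 15% of all genes were. Kif20a rose by 0.91 ± 0.18 and Mcm7 by 0.58 ± 0.15 in the ratio (SE, adjusted p = 0.0114 and 0.0295 by limma). In Cy5 alone they differed by 0.08 and -0.13. Kif20a was detected on 2 of 4 MuRF1 null MuRF2 het and 4 of 4 MuRF1 het MuRF2 null arrays. Ccna2 was detected on 0 of 4 MuRF1 null MuRF2 het arrays and on 4 of 4 MuRF1 het MuRF2 null arrays, so no fold is given, and its Cy5 difference was 0.02 (adjusted p = 0.867 by limma). All 3 differed in Cy3 alone as well, where 16 members and 55.5% of all genes did. From 1 to 8 members were called when single arrays were left out, with 8 without MuRF1 null MuRF2 het 2 (17% of all genes) and 6 without double null 2 (14.7%) or without double null 3 (10.5%). There was 1 without MuRF1 null MuRF2 het 1 (3.36%) or 3 (2.85%), or without MuRF1 het MuRF2 null 1 (1.82%), 2 (2.77%) or 4 (2.83%).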

How the data were processed

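RNA of 16 heart samples was compared with a common pup reference on two-colour Agilent arrays, without dye swaps. Per the file headers, spot intensity and the background flags came from Agilent Feature Extraction 9.1.3.1 (12 arrays) or 9.5.3.1 (4 arrays). The deposited log10 ratio and the series matrix's log2 values, which are that ratio minus each probe's median, served as alternatives. The file of double null 2 held values rounded by its depositors. The deposited intensity was background-corrected (normexp, offset 50) and loess-normalized with limma 3.58.1 in R 4.3.3, and spots of a probe were averaged. Probes with heart signal well above background on at least 4 of 16 arrays were kept (16810), and the brightest stood for its gene. limma compared the 4 groups over 12331 genes (1 fewer for MuRF1 het MuRF2 null), with Benjamini-Hochberg adjustment and a threshold of 0.05. Code was tested on simulated data. Array signals limit the precision. Nothing says whether replicates were pooled animals. The members and lists were chosen with earlier results of these data known. Members with values on every array were those that passed against wild type, the 2 brightest in each role group, and Pcna, Mki67 and Top2a.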

Additional observations from a re-analysis of the deposited data

Results flagged for a closer look

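Among 76 sets of 4 arrays examined, 5 held an array far from the other 3, and chance alone sets apart about 1 set in 20. Mcm6 had a log2 ratio of -0.62 on double null 2, against -1.99 to -2.13 on the other double null arrays. Mcm3 was at -0.49 on the same array, against -1.42 to -1.45 on the others. Double null 2 also detected 10 of the 48 members, where the other double null arrays detected 27 to 30. Mcm6 was at -1.73 on MuRF1 het MuRF2 null 4, against -2.09 to -2.15 on the other arrays of that group. Rrm1 was at -1.09 on wild type 1, against -1.19 to -1.21 on the other wild type arrays.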

How the results depend on the processing

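In double null against wild type hearts 5 of 35 members were called (22.2% of all genes). The Feature Extraction ratio gave 2 (17.6%), the series matrix values 2 (17.5%) and median centring 21 (55.8%). Without a filter there were 3 of 48 members (9.06%). A filter on all 16 arrays left 9 members to test, of which 2 were called (30%). Averaging a gene's probes gave 9 (23%) and array weights 21 (49.9%). Brightness as a covariate gave 0 (8.81%), slide 1 alone 0 (0%) and slide 3 alone 3 (19.3%). From 2 to 14 members were called when single arrays were left out. For MuRF1 null MuRF2 het against wild type hearts, 0 (1.03%) became 25 with median centring (59.8%) and 5 with array weights (17.2%). With single arrays left out it was 0 to 2. For MuRF1 het MuRF2 null against wild type hearts, 0 (1.95%) became 15 with median centring (20.7%) and 6 with array weights (23.9%). It became 3 with brightness (8.73%) and 2 without both dimmest arrays (8.43%). With single arrays of these groups left out it stayed at 0, though 1 member was called lower without double null 2 (3.38%). For double null against MuRF1 null MuRF2 het hearts, 0 (0.349%) became 2 with array weights (10%). It stayed at 0 with single arrays left out. For double null against MuRF1 het MuRF2 null hearts, 11 (26.3%) became 4 with the Feature Extraction log ratio (20.4%) and 4 with the series matrix (20.4%). It became 4 with median centring (7.06%), and 2 of 9 tested members with the filter on all arrays (32.4%). Array weights gave 21 (51.8%), brightness 3 (15%), and single arrays left out 7 to 15. For MuRF1 null MuRF2 het against MuRF1 het MuRF2 null hearts, 3 (8.54%) became 0 with the Feature Extraction log ratio (2.21%). It became 0 with the series matrix (2.22%), 1 with offset 0 (3.62%) and 0 of 9 tested members with the filter on all arrays (9.32%). Array weights gave 11 (25.4%), and single arrays left out 1 to 8. With median centring the median of all genes was -0.49 in double null against wild type hearts, and 5.27% of genes were above 0. Median centring turned the difference between these groups round for Prim1 (-0.18), Rfc4 (-0.35), Rfc5 (-0.11), Cenpa (-0.10), Mcm6 (-0.51) and Mcm3 (-0.68). It also turned it round for Cdc20 (-0.51), Birc5 (-0.40), Rrm1 (-0.59), Tyms (-0.34), Ccne1 (-0.32), Mki67 (-0.41), Pcna (-0.76) and Ccna2 (-0.12). Brightness as a covariate, which did not overlap between these groups, did so for Prim1 (-0.0313), Mcm6 (-0.37), Mcm3 (-0.31), Cdc20 (-0.32) and Birc5 (-0.42). It also did so for Rrm1 (-0.11), Tyms (-0.27), Ccne1 (-0.0852), Ccna2 (-0.26) and Mki67 (-0.54). The Feature Extraction ratio, the series matrix and Cy5 alone did so for Rrm1 (-0.0398, -0.0396 and -0.0216), Ccna2 (-0.0998, -0.0998 and -0.0632), Mki67 (-0.48, -0.48 and -0.26) and Pold1 (0.0287, 0.0288 and 0.0796), as did offset 0 for Mki67 (-0.0676) and Pold1 (0.0632). Pold1, near 0, was also at 0.0101 with array weights, 0.101 on slide 1, and -0.0545 to 0.074 with single arrays left out (above 0 without double null 3, wild type 2 or wild type 3). Against MuRF1 het MuRF2 null hearts, Plk1 in double null hearts was at -0.0084 with brightness, and in Cy5 alone Mcm7 (-0.16) and Ccna2 (-0.0474) in double null and Mcm7 (-0.13) in MuRF1 null MuRF2 het hearts turned round. The cause was not tested. Replicate numbers did not pair the arrays: deviations of arrays with the same number correlated at -0.612 to 0.363 (median -0.03, 24 pairs), and 3 of 16 arrays correlated best with their own number. With the replicate block 4, 0, 0, 0, 9 and 2 members were called in the 6 comparisons in the order above. Of all genes 19.3%, 0.535%, 1.23%, 0.13%, 23.7% and 6.36% were called there. Detection limits these results, since 13 of the 48 members were not tested and 27 were detected on 4 to 15 of the 16 arrays.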
